A study of Mus musculus with 8 samples.

Results

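Dividing cells of epithelial type were picked out of single-cell libraries of mouse pancreatic cancer. A barcode counted as a cell if it held 1500 or more unique molecular identifiers (UMIs, counted transcripts) from 200 or more genes and if mitochondrial genes gave no more than 10% of them. Of these, cells with a summed Krt8, Krt18 and Krt19 level of at least 30 UMIs per 10000, under 10 UMIs per 10000 of C1qa, C1qb and C1qc together and no UMI of Ptprc (the gene of CD45) are called keratin-gated. Keratin-gated cells with at least 3 of the 5 genes Mki67, Top2a, Birc5, Cdk1 and Ube2c detected are called cycling. The 420 cycling cells were 32 of 2277 cells in the library from primary tumors and 388 of 7618 in the library from liver tumors. The rule used measured transcripts, so the levels of the keratins, the 5 cell cycle genes, the C1q genes and Ptprc describe the choice and are not findings.

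The tumors grew from FC1242, a pancreatic cancer cell line from KPC mice, a genetically engineered model of the disease. All groups shared the host strain C57BL/6, a dose of 100000 injected cells and a harvest at 3 weeks. They differed in the site of the tumor, the pancreas (primary) or the liver. Each site has 3 bulk RNA-seq libraries and 1 droplet single-cell library of cells sorted for CD45, a protein of blood cells that epithelial cells lack. The cells described here are therefore ones that such a sort is meant to leave behind, and their number in a library depends on the sort. The labels do not say how many mice a library holds or how cells reached the liver, and give no age or sex. With 1 single-cell library per site, no test between sites or cell groups was possible, and intervals (95%) cover counting error only.

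A dividing cell first copies its DNA with helicases, polymerases and enzymes that make nucleotides, and then separates its chromosomes on a spindle. Most genes of these steps are transcribed only as they are needed: replication genes toward S phase under E2F factors, and mitotic genes later under the MuvB complex with B-Myb and Foxm1. Loss of CDK inhibitors such as Cdkn2a is a common event in pancreatic cancer, and division drives the growth of both primary tumors and metastases.

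Mitotic genes carry a shared element near their starts, so promoters of 4 genes that stand high in these cells are shown. They were chosen because each holds both searched motifs. The sequences are RefSeq's (GRCm38.p6), from 250 bases before to 50 bases after the start of the transcript. Capitals mark the letters TTTGAA or TTCGAA, the core of the cell cycle homology region that MuvB binds, and CCAAT, the box bound by NF-Y, on either strand. Neighbouring matches can share letters.

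Mki67, chr7:135716330-135716629, minus strand: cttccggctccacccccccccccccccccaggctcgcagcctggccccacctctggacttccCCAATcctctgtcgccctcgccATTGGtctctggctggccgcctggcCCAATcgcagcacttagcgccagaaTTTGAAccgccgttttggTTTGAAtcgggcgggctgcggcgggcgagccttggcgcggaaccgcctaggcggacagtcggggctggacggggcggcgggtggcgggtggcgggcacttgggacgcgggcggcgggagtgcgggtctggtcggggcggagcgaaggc

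Top2a, chr11:99024140-99024439, minus strand: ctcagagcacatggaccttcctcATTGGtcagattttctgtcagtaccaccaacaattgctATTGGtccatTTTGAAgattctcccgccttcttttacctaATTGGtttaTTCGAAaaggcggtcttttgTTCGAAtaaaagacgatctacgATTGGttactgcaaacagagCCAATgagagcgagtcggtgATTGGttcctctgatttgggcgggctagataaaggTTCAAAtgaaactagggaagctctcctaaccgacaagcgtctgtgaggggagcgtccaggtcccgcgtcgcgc

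Ube2c, chr2:164769679-164769978, plus strand: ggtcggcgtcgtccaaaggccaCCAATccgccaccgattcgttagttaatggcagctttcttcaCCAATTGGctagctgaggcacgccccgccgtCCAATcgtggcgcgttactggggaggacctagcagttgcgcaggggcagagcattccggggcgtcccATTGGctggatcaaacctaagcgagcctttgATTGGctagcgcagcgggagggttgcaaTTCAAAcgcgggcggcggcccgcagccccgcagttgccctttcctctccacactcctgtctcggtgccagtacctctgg

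Cdc20, chr4:118437294-118437593, minus strand: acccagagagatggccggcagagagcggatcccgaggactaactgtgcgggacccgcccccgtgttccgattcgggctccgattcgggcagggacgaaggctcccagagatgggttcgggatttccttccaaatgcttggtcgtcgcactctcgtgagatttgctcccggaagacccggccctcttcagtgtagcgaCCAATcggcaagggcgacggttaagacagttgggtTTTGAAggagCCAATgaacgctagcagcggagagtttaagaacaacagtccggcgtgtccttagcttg

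The first motif was found in 71.2% of the 59 promoters that 55 of 65 mitotic genes matched, against 19.2% of all 32851 promoters of this length. It was found in 13.5% of the 37 promoters of 30 matched replication genes. The CCAAT letters were found in 71.2% of the mitotic, 59.5% of the replication and 37.4% of all promoters, and both motifs in 55.9%, 10.8% and 7.52%. Of the 5 cell cycle genes of the rule, 4 held both motifs, and Birc5 held neither in its window. These matches describe letters, not binding.

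Cycling cells made up a like share of the keratin-gated cells of both libraries. In the primary library the share was 16.7% (32 of 192, exact interval 11.7 to 22.7%), and in the liver library 15.2% (388 of 2545, 13.9 to 16.7%). The share was lowest in the shallowest cells, at 3.70% of 54 primary and 6.64% of 873 liver cells below 3000 UMIs. It was 23.8% of 63 and 35.8% of 480 cells with at least 12000. Between these, liver shares were 12.1% at 3000 to 6000 and 14.7% at 6000 to 12000 UMIs. Primary shares there were 22.2% of 45 and 16.7% of 30 cells, so the primary share did not rise steadily with depth. Thinned to 1500 UMIs per cell, 10 primary cells (5.21%, 2.53 to 9.37%) and 116 liver cells (4.56%, 3.78 to 5.44%) still showed 3 genes. The same count in C1q-high macrophages, the main sorted cells, was 4.61% of 1476 primary and 7.79% of 2812 liver cells as found, and 0.813% and 0.925% after thinning. After thinning, the interval of the keratin-gated share lay above that of macrophages in both libraries. Without thinning, the macrophage share was 6.67% of 60 primary and 2.22% of 270 liver cells below 3000 UMIs, and 6.15% of 911 and 14.6% of 1222 with at least 12000, so the shallowest primary cells had the opposite order, with intervals that overlap. As a share of all cells, cycling keratin-gated cells were 1.41% and 5.09%, since keratin-gated cells were 8.43% of the primary and 33.4% of the liver cells. That last difference cannot be told apart from the sort.

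**Figure D1:**
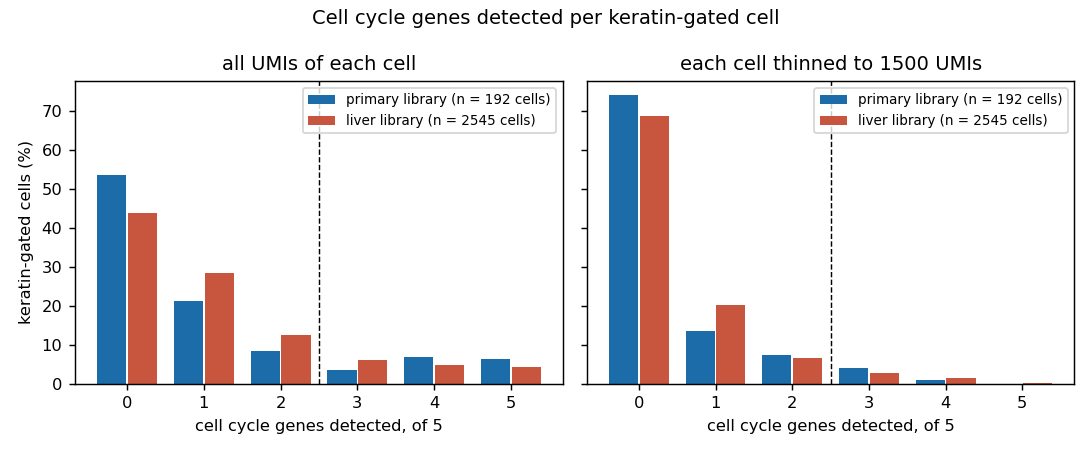
Percent of keratin-gated cells (y axis) by how many of the 5 cell cycle genes had a UMI (x axis), in the primary (192 cells) and liver (2545 cells) library, with all UMIs on the left and 1500 UMIs per cell on the right. The dashed line marks the limit of 3 genes: 32 and 388 cells lie to its right as found, and 10 and 116 after thinning.

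The 5 cell cycle genes describe the choice. Ube2c, a ubiquitin-conjugating enzyme that works with the anaphase-promoting complex, was detected in 29 of 32 primary and 348 of 388 liver cycling cells. Its level was 734 and 420 UMIs per 1000000 UMIs of the group (CPM). Birc5 (survivin, of the chromosomal passenger complex) was detected in 29 and 343 cells, Mki67 (the surface coat of mitotic chromosomes) in 27 and 262, Top2a (topoisomerase II alpha) in 26 and 247, and Cdk1 (the mitotic kinase) in 22 and 302. At the limit, 7 primary and 157 liver cells had just 3 of the genes, and 16 and 317 keratin-gated cells had 2 and stayed outside. Of the cycling cells, 4 and 15 had a keratin sum of 30 to 35 per 10000, and 4 and 20 cells that met the rest of the rule had 25 to 30. Median depth was 8290 UMIs (2685 to 121095) in primary and 10100 (1511 to 93531) in liver cycling cells, against 4913 and 3944 in the other keratin-gated cells. The deepest primary cycling cell alone held 19.6% of the 616871 UMIs of its group, and the deepest liver one 1.41% of 6629043.

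Epithelial genes that the rule did not use were present. At 1500 UMIs per cell, Cd24a, a surface glycoprotein, had a UMI in 34.4% of primary and 27.3% of liver cycling cells, against 3.98% and 11.2% of non-cycling macrophages. Epcam, an epithelial adhesion protein, had one in 9.38% and 8.25%, against 0.142% and 2.01%. Cdh1 (E-cadherin) was at 9.38% and 15.7%, against 0.852% and 5.05%, and Msln (mesothelin, common in pancreatic cancer) at 9.38% and 18.6%, against 0.284% and 4.40%. Each of these shares lay above that of macrophages in its library, of which median depths were 13671 and 10733 UMIs before thinning. Cldn7 was at 3.12% and 1.55%, and Cldn4, a claudin of pancreatic ducts, was at 0 of 32 (exact upper limit 10.9%) and 0.258%. No mutation of the injected line was read, so their descent from FC1242 was not tested.

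Nearly all cell cycle genes were higher in cycling than in other keratin-gated cells, beyond the 5 that chose them. The cells were chosen by genes of the same process, so this is a description. Of 144 further cell cycle genes in 8 lists by role, 127 (88.2%) were above the other cells in both libraries, against 32.8% of the 13600 genes detected in both. With every cell given equal weight, 126 were. A gene was taken as measured with at least 50 CPM and 10 UMIs in 1 of both groups of each library. Of 2583 measured genes, 72 (2.79%) were at least 2-fold higher and 12 (0.465%) at least 2-fold lower in both libraries. Of the 56 measured cell cycle genes, 39 were 2-fold higher and 1 lower.

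The mitotic kinase list was above in all of its 18 detected genes in both libraries. Ccnb1 (cyclin B1, the partner of Cdk1) stood at 152 CPM in primary cycling cells against 3.62 CPM in other cells, a log2 difference of 5.39. In liver cells it stood at 99.9 against 11.9 CPM, a difference of 3.07. Ccna2 (cyclin A2) differed by 4.02 and 3.16 and Ccnb2 by 3.25 and 2.18 on the log2 scale. Among partners of the anaphase-promoting complex, 6 of 6 were above in both libraries. Cdc20, which activates that complex, stood at 133 against 5.18 CPM in the primary and 161 against 23.8 CPM in the liver library.

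Kinetochore and passenger genes were above in 16 of 17, with Cenpf (a kinetochore protein) differing by 4.52 and 3.26 on the log2 scale, Cenpe (a kinetochore motor) by 4.45 and 2.97 and Cenpa (the centromeric histone) by 3.32 and 2.84. Zwint was the only measured kinetochore gene that did not differ in 1 direction, at -0.19 and 0.05. All 24 spindle and cytokinesis genes were above. Tpx2, which helps build spindles, stood at 154 against 5.70 CPM and at 107 against 11.1 CPM. All 16 chromatin and condensin genes were above, among them Hmgb2 (969 against 210 CPM, and 940 against 181 CPM) and H2afx (a log2 difference of 3.16 and 2.18).

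Replication genes differed less, an order that the choice favours, since the rule holds mostly genes of G2 and mitosis. In the primary library 1 of the 38 had no UMI in cycling cells, and 32 were above in both libraries, with a median log2 difference of 0.81 and 1.53 over the 9 that were measured. Rrm2, a subunit of the enzyme that makes deoxynucleotides, stood at 156 against 67.8 CPM in the primary and at 176 against 38.9 CPM in the liver library. Dut, which breaks down dUTP, differed by 1.40 and 1.16, and Tyms (thymidylate synthase) by 0.81 and 1.74. Pclaf, a partner of the replication clamp that is in no list, was among the 10 largest differences of all genes, at 2.93 and 2.59, as was Cdca3, a trigger of mitotic entry, at 3.61 and 2.60.

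**Figure D2:**
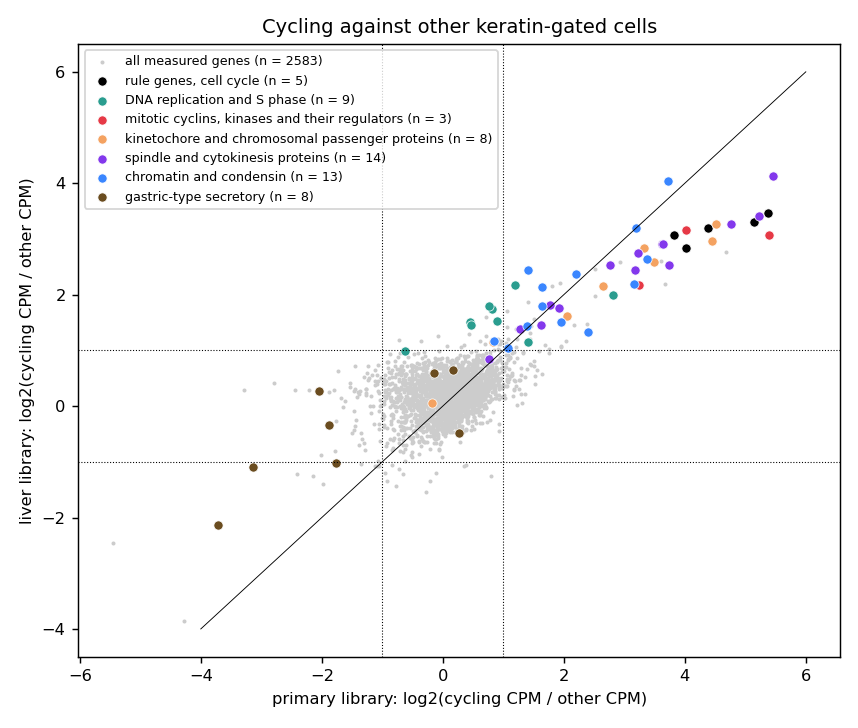
Log2 difference of cycling over other keratin-gated cells in the primary (x axis) and liver library (y axis) for 2583 measured genes, with list members in colour, dotted lines at 2-fold and the line of equality drawn. Mitotic, kinetochore and spindle genes lie up to 5.45 and 4.14, and 3 gastric-type genes lie past 2-fold on the lower side of both.

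Genes that act before S phase showed small differences. Ccnd1 (cyclin D1) was at 841 against 677 CPM in the primary and 648 against 517 CPM in the liver library. Cdk4 differed by 0.82 and 0.49 on the log2 scale, and Ccnd2 by -0.40 and -0.86. In all, 9 of 15 G1/S genes were above in both libraries and 1 below. Among CDK inhibitors, Cdkn2a, which encodes p16 and p19ARF, was found in 28 of 32 primary and 361 of 388 liver cycling cells. Its level was 587 CPM in cycling and 487 in other primary cells, and 492 and 446 CPM in liver cells, against 6.38 and 26.3 CPM in non-cycling macrophages. In the primary library 1 cell held 33.7% of its UMIs in cycling cells, and with cells weighted equally the order there was opposite, at 534 CPM in cycling and 613 CPM in other cells. Cdkn1a (p21) was the only CDK inhibitor below the other cells in both libraries: it stood at 56.7 against 302 CPM in the primary and 33.6 against 78.5 CPM in the liver library, log2 differences of -2.41 and -1.22.

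Single cycling cells differed in their summed replication and mitotic transcripts. No phase was assigned to a cell, and counting error within a cell was not taken into account. The summed level of the replication list had a median of 15.9 UMIs per 10000 (4.32 to 59.7) in primary and 18.9 (0 to 92.3) in liver cycling cells. The summed level of the mitotic kinase, anaphase and kinetochore lists had a median of 44.0 (5.33 to 104) and 34.3 (0 to 112). Replication exceeded mitotic transcripts in 5 of 32 primary cells (15.6%, 5.28 to 32.8%) and in 124 of 388 liver cells (32.0%, 27.3 to 36.9%), shares whose intervals overlap. Mitotic transcripts were at least 3 times the replication ones in 14 primary (43.8%) and 117 liver cells (30.2%). Which sum is larger also depends on the abundance of list members. Ube2s, of the anaphase list, alone stood at 1036 CPM in primary and 803 CPM in liver cycling cells. In other keratin-gated cells it stood at 230 and 294 CPM. The rule holds mostly genes of G2 and mitosis, so it takes few cells in early S phase. Cycling macrophages had medians of 9.88 and 11.3 for replication and 18.7 and 12.7 for mitotic transcripts.

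**Figure D3:**
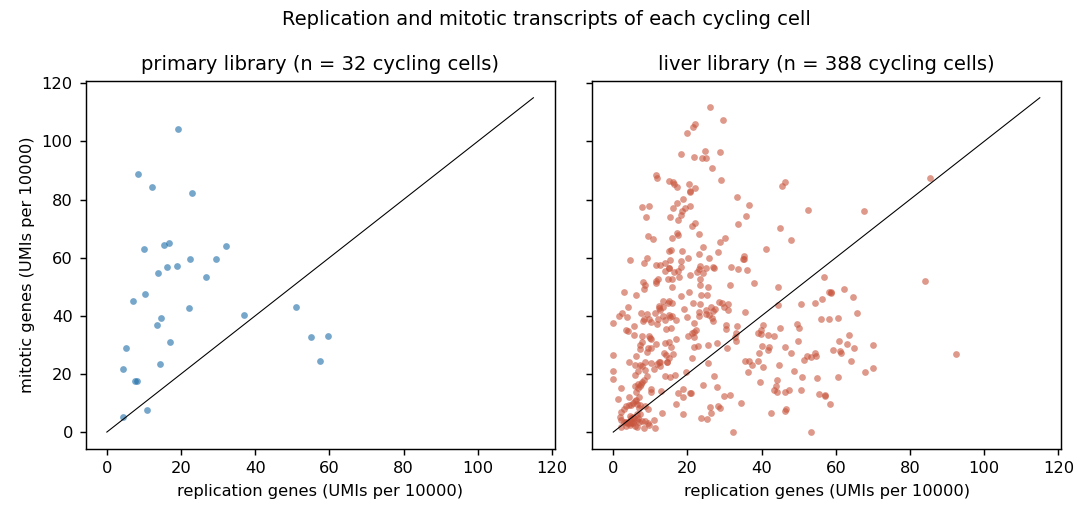
Summed mitotic (y axis) against replication transcripts (x axis), in UMIs per 10000, with 1 point for each of the 32 primary and 388 liver cycling cells. Points below the line of equality, 5 and 124 cells, held more replication than mitotic transcripts.

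Outside the cell cycle, genes of ribosome production were higher. All 12 genes of the ribosome biogenesis and polyamine list were above the other keratin-gated cells in both libraries, against 32.8% of all 13600 detected genes. With cells weighted equally 11 were, and none of the 10 measured reached 2-fold in both. The 10 had a median log2 difference of 0.70 in the primary and 0.79 in the liver library. Over all 2583 measured genes it was 0.11 and 0.23. Ncl (nucleolin) differed by 0.70 and 0.82 on the log2 scale and Eif4a1, a helicase of translation, by 0.42 and 0.39. Npm1 (nucleophosmin) differed by 0.17 and 0.19, close to the medians of all measured genes.

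Gastric-type secretory genes, which many pancreatic tumors of the classical type express, had lower summed CPM in cycling cells, but in the primary library not in the median cell. Their per-cell sum had a median of 26.2 UMIs per 10000 in liver cycling cells against 41.7 in other liver cells, and of 7.02 against 5.93 in primary cells. Of the 16 genes detected in both libraries 10 were below the other cells in both and 1 above, where 3150 of all 13600 detected genes were below in both, and 3 of 8 measured were 2-fold lower in both. Tff1, a trefoil peptide of gastric mucus, stood at 389 against 1326 CPM in the primary and 3156 against 6435 CPM in the liver library. Tff2 stood at 48.6 against 429 CPM and at 380 against 812 CPM. Gkn2 (gastrokine 2) had no UMI in primary cycling cells, at least 3.72 below the 64.2 CPM of other cells on the log2 scale when set against 3 UMIs, and stood at 214 against 945 CPM in liver cells. Cldn18, a stomach claudin, did not follow: it differed by 0.16 and 0.65, and by -0.23 in the primary library with cells weighted equally. In the primary library, 1 cell held 49.2% of the Tff1 and 46.7% of the Tff2 UMIs of cycling cells. After thinning, Tff1 was detected in 34.4% of primary cycling and 22.5% of other primary cells, an order opposite to its CPM, and in 74.0% and 86.6% of liver cells, with 42.0% in liver non-cycling macrophages.

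Further genes of the 10 largest lower differences were 2 glutathione transferases, Gsta1 (-1.98 and -1.39) and Gstm1 (-1.35 and -1.04), Lgals2, a galectin (-0.93 and -1.35), and Foxq1, a forkhead factor (-1.28 and -0.78). Cd74, the invariant chain of MHC class II, differed by -1.05 and -1.08, beside the macrophage transcripts given next. Epithelial identity, glycolysis and MHC class I lists held 1 of 23, 0 of 18 and 0 of 10 detected genes above in both libraries, against 32.8% of all 13600. Below in both were 8, 7 and 2 of them, against 3150 of the 13600. Median log2 differences of measured members were -0.60 and 0.25, -0.27 and 0.18, and -0.49 and -0.05. Over all 2583 measured genes they were 0.11 and 0.23. The first 2 lists differed in sign between the libraries, but their liver medians lay near that of all genes. The most abundant genes of the epithelial list beside the keratins of the rule were Krt7, a duct keratin (-0.60 and 0.34), Muc1, a membrane mucin (-0.98 and -0.24), and Spint2, a protease inhibitor (-0.78 and 0.25). Vim (vimentin, a mesenchymal filament) was abundant in both groups, at 2980 and 3176 CPM in primary and 3047 and 2442 CPM in liver cells.

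Transcripts of most other cell types were low in the cycling cells, apart from macrophage genes and, in the liver library, erythroid genes. The per-cell sum of macrophage genes had a median of 5.47 UMIs per 10000 in primary and 6.06 in liver cycling cells. That of erythroid genes was 0 and 0.24. The rule's limits on C1q genes and Ptprc hold down transcripts of macrophages and other CD45 cells, so their levels partly describe the choice. The 12 macrophage genes summed to 394 CPM in primary and 484 CPM in liver cycling cells, against 706 and 990 CPM in other keratin-gated cells and 44998 and 33902 CPM in non-cycling macrophages. No macrophage gene was above the other cells in both libraries. Cycling cells were deeper than the other keratin-gated cells, and having no Ptprc UMI is a stricter limit in a deeper cell. The lists of neutrophil, T and NK, B, dendritic, islet, mesothelial, fibroblast and endothelial genes summed to at most 9.73 CPM in primary cycling cells and 60.8 CPM in liver ones, the latter the neutrophil list, in which 1 cell held 78.2% of the S100a9 UMIs. Hepatocyte genes summed to 1.62 and 31.2 CPM and acinar genes to 64.8 and 0.905 CPM, while RNA from barcodes of at most 100 UMIs (free RNA) held 396 and 401 CPM of the first and 522 and 94.0 CPM of the second. Erythroid genes summed to 1.62 and 482 CPM, and 1 liver cell held 2755 UMIs of them per 10000. In the cholangiocyte and duct list, Bicc1 stood at 167 and 83.9 CPM, close to the 159 and 76.2 CPM of the other cells. Scrublet, a doublet caller, marked 5 of 2277 primary and 1 of 7618 liver barcodes and no cycling cell, which is too few for it to have worked. Of cycling cells, 0 primary and 3 liver ones were among the highest 6% of its scores. Of called cells, 7 barcodes were shared by the libraries, of which 1 involved a cycling cell.

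Between the sites, gastric-type genes stood higher in liver cycling cells and genes of the hypoxia response stood higher in primary ones. Of 3171 genes with at least 50 CPM and 10 UMIs in the higher library, 146 (4.60%) were at least 2-fold higher in the liver library and 124 (3.91%) at least 2-fold lower. Only the higher library had to reach these limits, so counts of list members by site in cycling cells, here and below, are a description. Of the 11 gastric-type genes measured, 9 were 2-fold higher and none lower. Of all 18 genes of that list, 8 had no UMI in primary cycling cells. Tff1 differed by 3.02 (2.84 to 3.21) on the log2 scale, and Tff2 by 2.96 (2.45 to 3.54). Gkn1 was 11.3-fold higher, with 11 UMIs in 3 primary cells, and Gkn2 differed by at least 5.46 on the log2 scale. The per-cell sum of the list had a median of 7.02 UMIs per 10000 (0 to 51.1) in primary and 26.2 (2.60 to 656) in liver cells, ranges that overlap. Other keratin-gated cells differed the same way, by 2.28 for Tff1, 0.92 for Tff2, 4.78 for Gkn1 and 3.88 for Gkn2.

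The same genes were higher in the free RNA of the liver library, by 2.97 for Tff1 and 2.70 for Tff2, and in its macrophages by 4.22 and 3.29. Its non-cycling macrophages also held a median keratin sum of 6.08 UMIs per 10000, against 0.447 in primary ones. The part of free RNA in the difference of cycling cells was not tested. In liver cycling cells Tff1 stood at 3156 CPM, against 2256 CPM in free RNA and 338 CPM in macrophages, and Tff2 at 380 CPM, against 384 and 60.9 CPM.

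Further genes of the 10 largest differences toward the liver were Hbb-bs, a hemoglobin chain, with 1 primary UMI and a log2 difference of 7.37 (4.89 to 12.7), Phlda2 (2.48), Gsta1 (2.36), Ctse, a gastric protease (2.33), Lgals2 (2.30) and Gm26917 (2.92). In the liver cells, 1 cell held 34.4% of the Hbb-bs, 41.9% of the Gkn2 and 31.0% of the Gm26917 UMIs. Ctse did not differ between sites in other keratin-gated cells (0.01).

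Of the 15 glycolysis and hypoxia genes measured, 7 were 2-fold lower in liver cycling cells and none higher. Vegfa, the growth factor of blood vessels, stood at 126 CPM in primary and 29.7 CPM in liver cells, a log2 difference of -2.09 (-2.47 to -1.69). Ndrg1, a hypoxia-induced gene, differed by -2.43, Bnip3, a mitophagy receptor, by -2.78 and Egln3, an oxygen sensor, by -2.20. Other keratin-gated cells differed by -3.26, -2.06, -3.62 and -2.33 for these 4 genes, and macrophages by -3.12, -1.83, -1.91 and -1.41. In the primary cycling cells 1 cell held 37.2% of the Vegfa, 62.5% of the Ndrg1, 78.3% of the Bnip3 and 57.1% of the Egln3 UMIs. With cells weighted equally the differences were -2.61, -1.47, -2.14 and -2.00. The other members past 2-fold, named after their values were seen, were Adm, Ddit4 and Hk2, at -5.89, -2.38 and -1.77, and 1 cell held 84.8%, 27.6% and 35.5% of their primary UMIs. Of the abundant enzymes, Gapdh differed by -0.79, Pkm by -0.21 and Ldha by 0.14.

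Among genes with at least 100 CPM in the higher library, several of the 10 largest differences toward the primary library came mostly from single cells. Cited1, a transcriptional co-activator, differed by -5.59, and 97.2% of its 179 primary UMIs came from 1 of the 4 cells that had any. The same holds for Gm26870 (95.2% from 1 of 3 cells) and Iigp1, an interferon-induced GTPase (83.9% from 1 of 7 cells). For Ero1l, an oxidase of the endoplasmic reticulum (-2.03), and AA467197 (-2.45) 1 cell held 78.6% and 77.0%. Ddit3 (CHOP, a factor of the stress response) differed by -3.85, with 59.6% of its primary UMIs from 1 of 10 cells. Without the deepest cycling cell of each library, 134 genes were 2-fold higher and 266 lower in the liver library.

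The cell cycle genes differed by site in both directions. Of 79 measured, 6 were 2-fold higher and 4 2-fold lower in liver cycling cells, with a median of -0.22 against -0.03 over all measured genes. The 19 replication genes had a median of 0.75, and the 4 past 2-fold were higher, among them Tyms, and Mcm6 and Slbp, named after their values were seen. With cells weighted equally Tyms stood at 0.98, Mcm6 at 0.62 and Slbp at -0.05. The 8 mitotic kinase genes had a median of -0.80, and the 3 past 2-fold (Cdc25b, Plk1 and Bub1, named in the same way) were lower, at -1.42, -0.94 and -1.19 with equal weights.

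**Figure D4:**
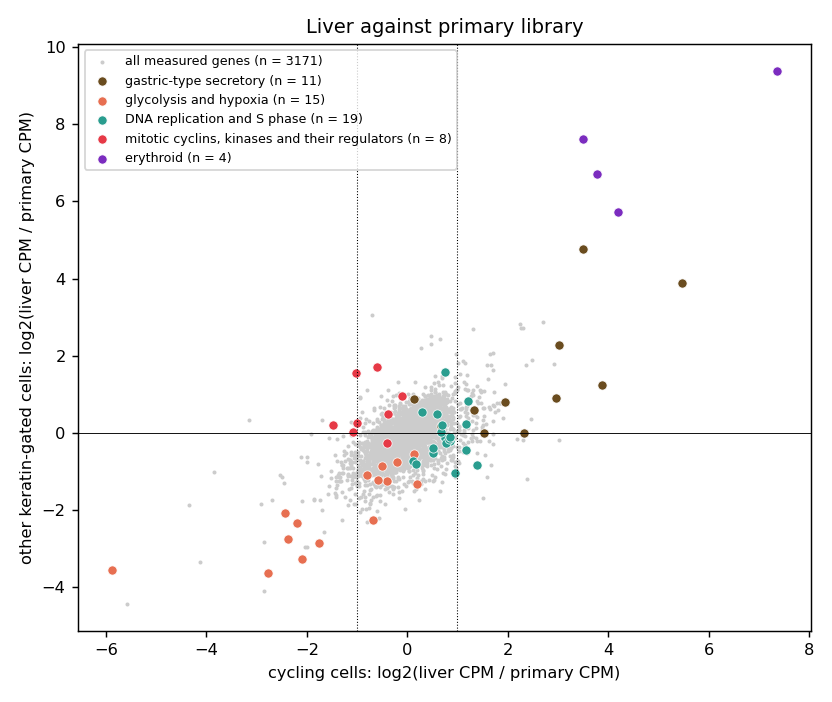
Log2 of liver over primary CPM in cycling cells (x axis) against the same ratio in other keratin-gated cells (y axis), for 3171 genes, with dotted lines at 2-fold. Most gastric-type and all 4 erythroid genes lie to the upper right and 7 glycolysis and hypoxia genes to the lower left, while replication and mitotic kinase genes lie nearer to 0, with medians of 0.75 and -0.80 on the x axis.

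Bulk tumors carry the replicates of the study and took no part in choosing the cells. They mix all cells of the tumor, so fewer cycling cells and less RNA per cell cannot be told apart, and cells other than epithelial ones divide too. Counts were tested with edgeR's quasi-likelihood test, 3 liver against 3 primary tumors, with Benjamini-Hochberg adjustment over 16487 genes. Of these, 2755 (16.7%) were higher and 1032 (6.26%) lower in liver tumors at an adjusted p below 0.05, 23.0% in all. Of 143 tested cell cycle genes, 2 were higher and 4 lower, with 12 at an unadjusted p below 0.05, and their median log2 difference was -0.12 against -0.07 over all genes. As shares of the 143, both counts lay below those of all genes.

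None of the 5 cell cycle genes of the rule passed the test, none had an unadjusted p below 0.05, and none passed in DESeq2 or limma-voom. Mki67 stood at 274, 138 and 251 CPM in primary and 211, 228 and 315 CPM in liver tumors, a log2 difference of 0.18 (SE 0.30, edgeR adjusted p = 0.695). Top2a stood at 313, 155 and 289 CPM and at 229, 256 and 342 CPM, a difference of 0.13 (SE 0.31, edgeR adjusted p = 0.793). For both the groups overlap, and primary replicate 2 was the lowest of the 6. Birc5 stood at 59.4, 30.6 and 69.5 CPM in primary and 55.9, 35.3 and 48.9 CPM in liver tumors, Cdk1 at 143, 59.5 and 138 CPM and at 90.3, 88.2 and 114 CPM, and Ube2c at 119, 68.0 and 115.2 CPM and at 90.4, 71.4 and 107 CPM. They differed by -0.19, -0.22 and -0.17, with edgeR adjusted p from 0.663 to 0.705, and primary replicate 2 was the lowest of the 6 for these as well.

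The same tumor had the most keratin RNA. Krt18 stood at 1192, 2947 and 1559 CPM in primary and 1019, 906 and 853 CPM in liver tumors, a log2 difference of -1.04 (SE 0.37, edgeR adjusted p = 0.0779). Its groups do not overlap, which was also so for 7263 of all 16487 tested genes. Krt8 differed by -0.96 (edgeR adjusted p = 0.138) and Krt19 by -1.21 (0.0686), and neither passed the test. DESeq2 called Krt18 and Krt19. Single cycling cells held Krt18 at 2946 CPM in the primary and 3977 CPM in the liver library. They were chosen by keratin level, so these values describe the choice and are not set against bulk. In the primary library 1 cell held 29.9% of these Krt18 UMIs, and free RNA held 281 CPM there and 1482 CPM in the liver library.

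The called cell cycle genes were spread over 3 lists. Cdkn2b (p15) stood at 99.4, 76.9 and 86.5 CPM in primary and 46.9, 39.1 and 52.7 CPM in liver tumors, a fall of 0.92 on the log2 scale (log2 -0.92, SE 0.19, edgeR adjusted p = 0.0103). Cdkn2a stood at 346, 253 and 363 CPM and at 178, 124 and 182 CPM (-0.99, SE 0.24, edgeR adjusted p = 0.0223). All primary tumors were above all liver tumors for both, and groups did not overlap, in either direction, for 7263 of the 16487 tested genes. They are neighbours on chromosome 4 (GRCm38, 89306299 to 89311039 and 89274471 to 89294653, minus strand), and no other gene shares their exons. In cycling cells their log2 differences by site were -0.26 and -0.25. Non-cycling macrophages held Cdkn2b at 1.03 and 3.33 CPM and Cdkn2a at 6.38 and 26.3 CPM in the primary and liver library. The 3 keratins of the rule differed by -0.96 to -1.21 in bulk, without passing the edgeR test. For Cdkn2a and Cdkn2b, fewer epithelial cells and less RNA per cell cannot be told apart in bulk, and neither was tested.

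Mcm10, a replication initiation factor, stood at 38.8, 23.6 and 38.2 CPM in primary and 136, 82.3 and 59.8 CPM in liver tumors (1.46, SE 0.33, edgeR adjusted p = 0.0161). Ung, which removes uracil from DNA, stood at 6.34, 6.51 and 6.69 CPM and at 13.6, 11.3 and 11.04 CPM (0.88, edgeR adjusted p = 0.0263). Cdc25a, a phosphatase that starts S phase (-0.70, edgeR adjusted p = 0.0449), and Cdt1, a licensing factor named after its value was seen (-0.65, 0.0391), fell. Mcm10 and Cdkn2b were called in 11 of 12 alternative fits, Cdkn2a in 8, Cdt1 in 6, Ung in 5 and Cdc25a in 4. Without liver replicate 1, 0 genes were higher and 1 lower (7 at an unadjusted p below 0.05, edgeR), without liver replicate 2, 1 and 0, and without primary replicate 3, 1 and 1. Without primary replicate 1 or liver replicate 3, 1 gene was higher.

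The lists of mitotic kinases (18 genes), anaphase partners (6), kinetochore (17), spindle (24) and chromatin genes (15 tested) held no call in edgeR, DESeq2 or limma-voom, with 1, 0, 0, 0 and 1 gene at an unadjusted p below 0.05 in edgeR. Those with the smallest p of each list included Cdc25b (-0.51, edgeR adjusted p = 0.108), Cdc20 (-0.27, 0.319) and Kif22 (-0.38, 0.199). Without liver replicate 3, Cdc25b was called, and without primary replicate 1, H2afz, a histone, was called.

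**Figure D5:**
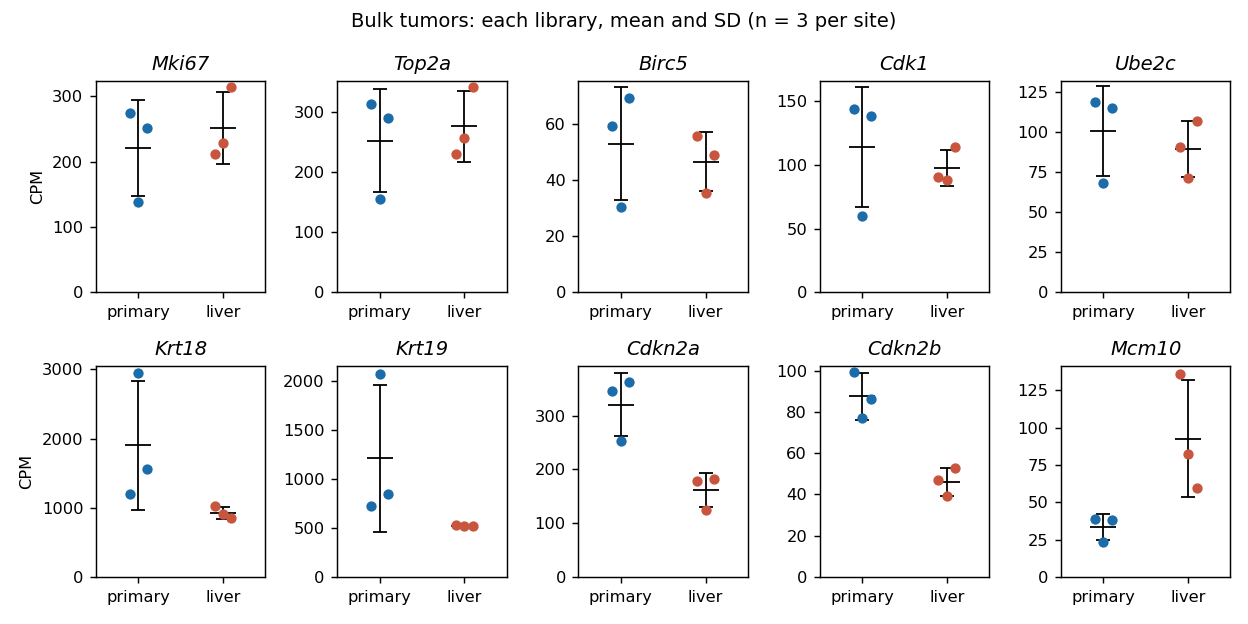
CPM (y axis, TMM-scaled, from 0) of 10 genes in each of the 3 primary and 3 liver bulk tumors, as points, with mean and SD as bars. The 5 cell cycle genes of the rule overlap between sites, Cdkn2a and Cdkn2b lie lower and Mcm10 higher in every liver tumor, and 1 primary tumor stands apart in Krt18 and Krt19.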

How the data were processed

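The authors deposited raw read counts per gene for 6 bulk libraries (27481390 to 36743247 reads each) and UMI counts for every barcode of 2 droplet libraries, 82083967 (primary) and 161890665 (liver) UMIs. Per the submitters' processing notes, bcl2fastq, Cell Ranger and mm10 were used, and the matrix header gives software version 3.0.0; the bulk aligner is not given in the sources used here. The labels name separate replicates but not separate mice, so p-values measure the spread between these samples. Members and gene lists were chosen with earlier results of these data known.

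UMIs were summed per cell group and given as CPM, with exact Poisson and conditional binomial intervals for levels and ratios and Clopper-Pearson intervals for shares, all at 95% (scipy 1.17.1). A count of 0 was set against 3 UMIs. Cells were thinned to 1500 UMIs at random with a fixed seed. Scrublet ran in scanpy 1.11.5 at an expected rate of 6%. Named genes were the 3 most abundant of each list, the 10 largest differences in each direction with at least 100 CPM, and in bulk the genes of the rule and the 2 smallest p of each list; the epithelial markers named were fixed with the cell type markers, and a list member outside the rule could be named where it alone went against its list (Zwint, Cdkn1a).

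Bulk counts were tested with edgeR 4.0.16 (R 4.3.3; TMM, filterByExpr, robust quasi-likelihood fit, two-sided), with DESeq2 1.42.0 and limma-voom 3.58.1 as alternatives. The code was checked on simulated counts. Bulk CPM use TMM-scaled totals. Reads of genes that overlap on the other strand, such as Ube2c and Tnnc2 or Krt8 and Gm36026, may not be told apart, since strand is not given in the sources used here.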

Additional observations from a re-analysis of the deposited data

Results flagged for a closer look

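The difference between cycling and other keratin-gated cells pointed in opposite directions in the libraries for 3 named genes, with counting intervals that leave out 0; the difference between the libraries was not tested. Ddit3 stood 1.85 higher on the log2 scale in primary and -0.99 in liver cycling cells, with 59.6% of its primary UMIs in 1 cell. Ctse differed by -2.05 in the primary and 0.28 in the liver library, and Slc4a4, a bicarbonate transporter of ducts, by -1.70 and 0.23. The liver values of these 2 genes lay near the median of all measured genes in that library, 0.23. With cells weighted equally the values were 0.78 and -0.47 for Ddit3, -0.86 and 0.079 for Ctse and -0.061 and -0.058 for Slc4a4.

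Signal was also seen in barcodes that the rule leaves out. Over the mitochondrial limit, 13 primary and 208 liver barcodes passed the rest of the rule, among 144 and 1283 keratin-gated ones over that limit. With Ptprc UMIs, 7 primary and 57 liver cells passed the rest, among 27 and 329 cells that met the keratin and C1q limits. None of these entered the values above.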

How the results depend on the processing

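The cycling share of keratin-gated cells depended on depth and on the number of genes asked for. In the liver library it was 19.7% with at least 3000 UMIs, 11.3% with at least 1000 and 9.08% with 4 of the 5 genes, and with 2 of the 5 it was 25% in the primary and 27.7% in the liver library. With the rule applied after thinning it was 5.21% and 4.56%, with 149 genes 2-fold higher and 59 lower in cycling cells in both libraries, 74 of them cell cycle genes, and 299 higher and 296 lower in the liver library, from 10 and 116 cells. The genes lower in cycling cells were 7 with a mitochondrial limit of 5%, 6 with 20% and 5 with 2 of the 5 genes. Against cells with none of the 5 genes, a choice made after seeing the data, 116 genes were higher. The genes that differed by site were 92 higher and 380 lower in the liver library with a mitochondrial limit of 5%, 230 higher with 4 of the 5 genes, 540 lower with a keratin sum of at least 50 and 266 lower without the deepest cell of each library (also chosen after seeing the data).

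Of 81 values of named genes past 2-fold in single cells, 3 changed sign under 1 alternative each: Ero1l by site to 0.026 with 4 of the 5 genes, Iigp1 by site to 0.80 with a keratin sum of at least 50, and Gstm1 in the liver library to 0.24 after thinning. Of 77 values under 2-fold, 20 changed sign after thinning, 14 with cells weighted equally (chosen after seeing the data), 12 with a keratin sum of at least 50, 10 with a mitochondrial limit of 5% and at most 6 under each other alternative, so their directions are not firm. With equal weights 80 genes were higher and 8 lower in cycling cells and 155 and 164 by site. The causes were not tested. In bulk, leaving out 1 library at a time gave -0.063 to 0.37 for Mki67 and -0.12 to 0.31 for Top2a, below 0 without primary replicate 2 or liver replicate 3, and -0.46 to 0.052 for Birc5, above 0 without primary replicate 3.

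Leaving out each bulk library gave 0 to 2 cell cycle genes higher and 0 to 5 lower, and without a filter on low counts 1 was higher. Same-numbered libraries correlated at -0.18, 0.25 and 0.09, and 2 of 6 correlated best with their own number, so they were not taken as pairs; a fit with the replicate block gave 1 gene higher and 2 lower. DESeq2, limma-voom, RLE factors and a minimum of 5 CPM gave 2 genes higher and 3 to 5 lower. Leaving out barcodes that Scrublet marked, none of which was a cycling cell, changed none of these counts. Leaving out the highest 6% of its scores (chosen after seeing the data) gave 74 and 12 genes for cycling against other cells. By site it gave 145 and 125. In the primary library, 32 cells limit what depth can show: a count of 0 there allows up to 3 of 616871 UMIs.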
